A study of Mus musculus with 8 samples.

Results

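The 10 genes described here belong to the epithelial to mesenchymal transition (EMT) and were followed in sorted mouse mammary tumor cells. They were chosen by symbol and matched to Ensembl identifiers: 7 EMT factors (Zeb1, Zeb2, Snai1, Snai2, Twist1, Foxc1 and Foxc2) and 3 epithelial keepers (Grhl2, Ovol1 and Esrp1), 10 of the 16341 genes counted. RNA-Seq libraries were made from cells of 4T1, a line derived from a mouse mammary carcinoma that metastasizes after implantation. Sorting for SCA1, the surface product of Ly6a, gave 4T1-Sca1+ cells (4 libraries) and 4T1-Sca1- cells (4 libraries). The question was whether the 10 genes moved in 1 direction between the fractions.

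Neither group had a stated treatment, time point or animal age. By the source label and the study's text the cells were sorted from the parental line, whereas the extraction protocol speaks of stained tumor and the sort label adds a CD45- gate. The origin could not be settled from these sources. Nothing in the labels says that the replicates were separate sorts, so p-values measure only the spread between these libraries, which may be technical. Total counts ran from 13561804 to 16968215 per library. Counts of Ly6a ran from 145 to 196 in 4T1-Sca1+ cells and from 0 to 4 in 4T1-Sca1- cells. The 4T1-Sca1+ replicate 3 stood apart: relative to the mean of its group, its level rose with transcript GC content by 0.162 (log2) per 10 points, against -0.0690 to -0.0296 in the other 4T1-Sca1+ libraries. To a lesser degree so did 4T1-Sca1- replicate 2, at 0.0979 against -0.0716 to -0.0047 in the rest of its group. As slopes are relative to the group mean, 1 high library lowers those of the others. Values of the 10 genes and the counts of the EMT and epithelial lists are given with and without 4T1-Sca1+ replicate 3.

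In EMT, epithelial cells loosen their junctions and take on mesenchymal traits. Snail proteins (Snai1, Snai2) and ZEB proteins (Zeb1, Zeb2) are zinc finger repressors that bind E-box sequences in genes such as Cdh1, which encodes E-cadherin, while Twist1 is a basic helix-loop-helix factor and Foxc1 and Foxc2 are forkhead factors. The keepers oppose them: Grhl2 and Ovol1 are transcription factors that restrain Zeb1 and maintain junction genes, Esrp1 is an RNA-binding protein that directs epithelial splicing, and microRNAs of the miR-200 family repress Zeb1 and Zeb2 through their 3′ UTRs.

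Sequences of the miR-200 family are shown because Zeb1 and Zeb2 are its known targets and moved in opposite directions here. The mature members below are from RefSeq (GRCm38.p6), 5′ to 3′, with the seed (bases 2 to 8) in capitals.
mmu-miR-200b-3p: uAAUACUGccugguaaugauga
mmu-miR-200c-3p: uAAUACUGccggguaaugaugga
mmu-miR-429-3p: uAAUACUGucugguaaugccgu
mmu-miR-200a-3p: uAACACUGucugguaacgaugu
mmu-miR-141-3p: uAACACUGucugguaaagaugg
These fall into 2 groups by seed, AAUACUG in the upper 3 and AACACUG in the lower 2. Matches were counted on the transcript strand of the annotated 3′ UTRs, a search chosen after the counts had been seen. The match to the former, CAGTATT, occurred 5 times in Zeb1 and 5 times in Zeb2, and the match to the latter, CAGTGTT, 4 times in Zeb1 and 3 times in Zeb2. Of 14784 genes, 0.406% held 3 or more matches to CAGTATT and 0.812% held 3 or more to CAGTGTT. Snai1, Snai2 and Esrp1 each held 1 CAGTATT and Snai2, Foxc1, Foxc2, Grhl2 and Esrp1 each 1 CAGTGTT, where 12.7% and 17% of genes held at least 1. Twist1 and Ovol1 held neither match. These are matches of letters and not measured sites, and no miR-200 gene was among the genes counted.

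Promoter windows, the 250 bases before a RefSeq start in GRCm38.p6, were given for Zeb2, Snai1, Twist1 and Foxc1, all called higher in 4T1-Sca1+ cells under TMM scaling. They are printed for the last 3, which have 1 listed start each, while Zeb2 has 4. The E-box CAGGTG, searched on both strands after the counts had been seen, is in capitals.
Snai1, chr2:167537945-167538194, plus strand: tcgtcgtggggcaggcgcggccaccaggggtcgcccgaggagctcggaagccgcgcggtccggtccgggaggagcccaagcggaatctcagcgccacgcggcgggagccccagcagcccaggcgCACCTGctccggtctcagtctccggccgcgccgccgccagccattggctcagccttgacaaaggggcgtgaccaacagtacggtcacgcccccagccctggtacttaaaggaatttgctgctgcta
Twist1, chr12:33957421-33957670, plus strand: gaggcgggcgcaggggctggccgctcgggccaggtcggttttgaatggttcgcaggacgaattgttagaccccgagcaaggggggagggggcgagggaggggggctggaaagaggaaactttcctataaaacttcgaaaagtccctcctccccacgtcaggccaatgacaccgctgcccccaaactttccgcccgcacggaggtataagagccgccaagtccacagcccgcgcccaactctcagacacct
Foxc1, chr13:31806396-31806645, plus strand: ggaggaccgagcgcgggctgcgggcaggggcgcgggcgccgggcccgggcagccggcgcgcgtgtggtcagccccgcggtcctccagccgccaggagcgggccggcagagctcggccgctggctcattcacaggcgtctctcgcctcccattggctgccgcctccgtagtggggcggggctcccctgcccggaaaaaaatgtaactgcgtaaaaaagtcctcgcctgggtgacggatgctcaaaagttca
Snai1 held 1 match, on the opposite strand (CACCTG), starting at -126 from its start. None was found in the windows of Twist1, Foxc1 or the 4 starts of Zeb2, and 17.2% of 32851 windows of this length held at least 1. The GC content of the windows was 70% in Snai1, 62.4% in Twist1, 70.8% in Foxc1 and 49.6% to 57.6% at the 4 starts of Zeb2, against a median of 52.4% over all windows.

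The 10 genes did not move in 1 direction together, but the EMT factors and the keepers moved mostly apart. Of the 9 genes tested, 5 were higher in 4T1-Sca1+ cells (Zeb2, Snai1, Twist1, Foxc1 and Foxc2) and 4 were lower (Zeb1, Grhl2, Ovol1 and Esrp1) by edgeR's quasi-likelihood test with Benjamini-Hochberg adjustment over the 11717 genes tested, called at an adjusted p under 0.05. Snai2 was below the low-count filter. The background was high: 61.5% of all tested genes were called in either direction, 31.3% higher and 30.2% lower. Among EMT factors 5 of the 6 tested were higher, and all 3 keepers were lower. Normalized counts (counts divided by DESeq2 size factors) did not overlap between the groups for 8 of the 10 genes, the exceptions being Snai1 and Snai2, against 54.7% of all tested genes. In these bulk samples, fewer cells of a type and less RNA per cell cannot be told apart.

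**Figure D1:**
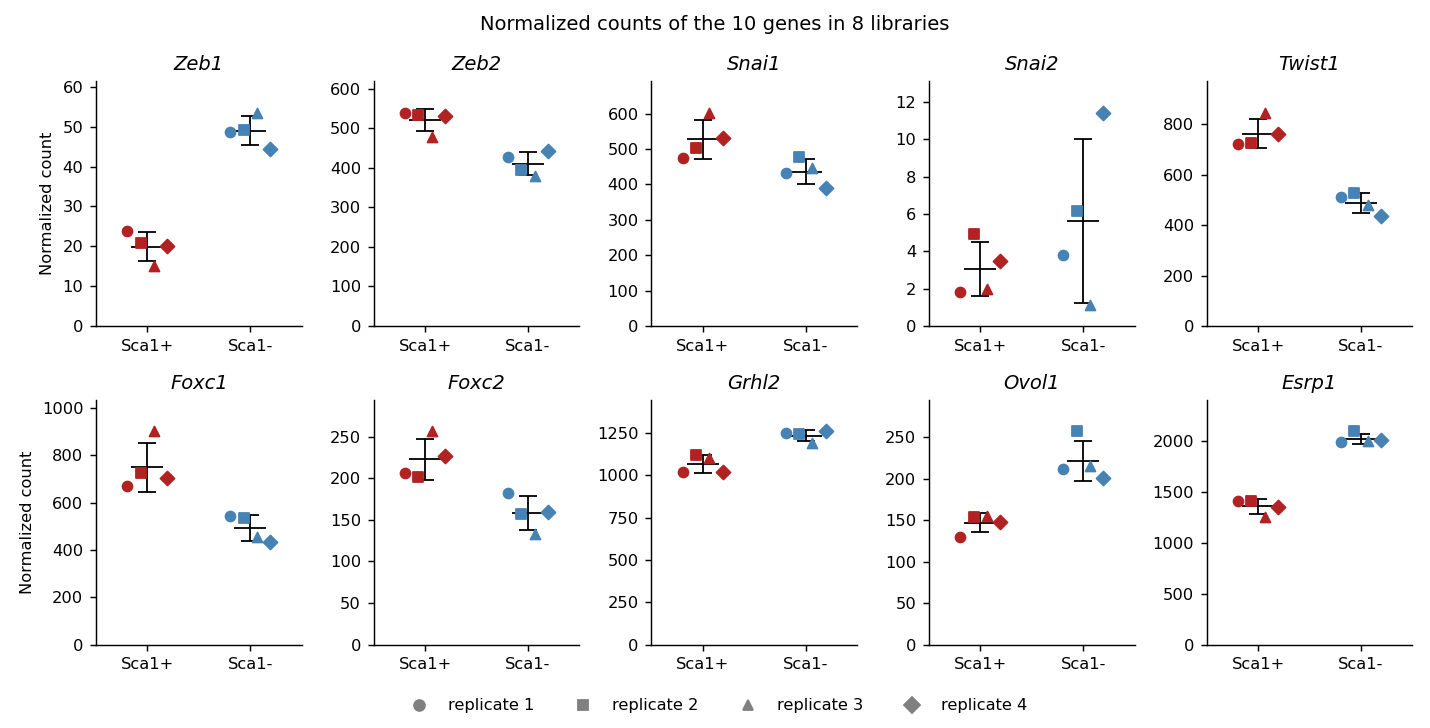
Normalized counts (vertical axes, each from 0) of the 7 EMT factors and 3 keepers in 4 4T1-Sca1+ (red) and 4 4T1-Sca1- (blue) libraries, where symbols give the replicate number, and bars the mean ± SD. Zeb1, Grhl2, Ovol1 and Esrp1 are lower in every 4T1-Sca1+ library than in any 4T1-Sca1- library, whereas Snai1 and Snai2 overlap.

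Transcript GC content moved with these calls. The group difference rose by 0.234 (log2) per 10 points of GC over all tested genes, and genes of at least 55% GC were called higher in 49.4% of cases and lower in 16.8%, against 25.5% and 34.6% for genes under 55%, a split set after seeing the data. Snai1, Twist1, Foxc1 and Foxc2 had 59.8%, 59.3%, 55.9% and 62.0% GC, while Zeb1, Zeb2, Grhl2 and Esrp1 had 46.1%, 46.2%, 48.8% and 48.0% and Ovol1 54.3%. With offsets corrected for GC content in each library, 3 of the 9 tested genes were higher (Zeb2, Twist1 and Foxc1) and the same 4 were lower, against 32.4% and 33.3% of all tested genes. Snai1 and Foxc2 lost their calls. By their construction these offsets take out differences between the groups that go with GC content, whatever their source. The part of GC content in the remaining differences was not tested further. Without 4T1-Sca1+ replicate 3, 5 of the 9 tested genes were called higher and 4 lower, as were 3642 and 3548 of all genes.

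**Figure D2:**
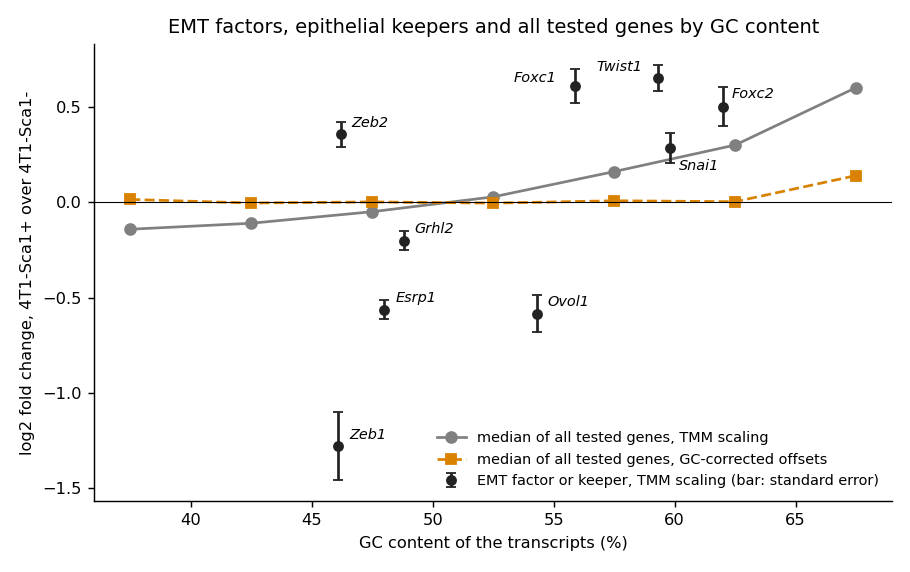
Log2 fold change (4T1-Sca1+ over 4T1-Sca1-) against transcript GC content (%), with the 9 tested genes in black (bar, standard error), the median of all tested genes in bins of GC under TMM scaling (grey) and with GC-corrected offsets (orange). The grey line rises from -0.14 in the lowest bin to 0.60 in the highest, and Snai1 lies nearest to it among the genes at high GC.

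Zeb1 fell the most of the 10. Its normalized counts were 23.8, 20.7, 15.0 and 20.1 in 4T1-Sca1+ replicates 1 to 4 and 48.7, 49.3, 53.4 and 44.5 in 4T1-Sca1- replicates 1 to 4. Each 4T1-Sca1+ library was thus below every 4T1-Sca1- library, with replicate 3 lowest. The means were 19.9 ± 3.65 and 49.0 ± 3.65 (SD, n = 4), a log2 fold change of -1.28 ± 0.18 (SE; edgeR's quasi-likelihood test, Benjamini-Hochberg adjusted p = 8.42e-06), 2.42-fold lower in 4T1-Sca1+ cells. Only 3.87% of tested genes had an absolute log2 fold change at least as large. The log2 fold change was -1.21 with GC-corrected offsets, and leaving out 4T1-Sca1+ replicate 3 gave -1.17. These levels rest on few reads, 15 to 26 counts in each 4T1-Sca1+ library and 39 to 51 in each 4T1-Sca1- library. Zeb1 (ENSMUSG00000024238) lies on chromosome 18, 5591860 to 5775467, plus strand, in GRCm38.

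Zeb2, the paralog of Zeb1, was higher. It had normalized counts of 538, 534, 479 and 530 in the 4T1-Sca1+ libraries and 426, 394, 378 and 443 in the 4T1-Sca1- libraries. The groups did not overlap, although replicate 3 of 4T1-Sca1+ cells stood below the rest of its group. The log2 fold change was 0.36 ± 0.07 (520 ± 28 against 410 ± 29.3, SD, n = 4, edgeR adjusted p = 0.000183), with 0.42 under GC-corrected offsets and 0.39 without that library. The ratio of Zeb2 to Zeb1 counts within a library, a measure chosen after these directions were seen and given without a test, ran from 22.7 to 32.0 in 4T1-Sca1+ and from 7.08 to 9.95 in 4T1-Sca1- cells. Zeb2 (ENSMUSG00000026872) lies on chromosome 2, 44983632 to 45117395, minus strand, and 653 of its exon bases are shared with Zeb2os on the opposite strand, which had 88 counts in all. The library kit does not mark strand, so reads from that stretch cannot be told apart.

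Snai1, which encodes Snail, had normalized counts of 474, 502, 601 and 531 in 4T1-Sca1+ cells and 433, 476, 445 and 389 in 4T1-Sca1- cells. Its highest library was 4T1-Sca1+ replicate 3, and the groups overlapped, since 4T1-Sca1- replicate 2 exceeded 4T1-Sca1+ replicate 1. The log2 fold change was 0.28 ± 0.08 (527 ± 54.7 against 436 ± 36.1, edgeR adjusted p = 0.00397). It was 0.21 without 4T1-Sca1+ replicate 3 (edgeR adjusted p = 0.00857) and 0.04 ± 0.06 with GC-corrected offsets (edgeR adjusted p = 0.527). Snai1 (ENSMUSG00000042821) lies on chromosome 2, 167538195 to 167542814, plus strand.

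Snai2, which encodes Slug, was close to the limit of detection. It had 2, 5, 2 and 4 counts in 4T1-Sca1+ libraries and 4, 6, 1 and 10 in 4T1-Sca1- libraries, 13 against 21 in all. The groups overlapped, and a difference was not detectable at this depth: with no low-count filter the log2 fold change was -0.83 ± 0.58 (edgeR adjusted p = 0.251), and a two-sided exact permutation test gave p = 0.486, where 0.0286 is the smallest p that 4 against 4 libraries allow. Snai2 (ENSMUSG00000022676) lies on chromosome 16, 14705852 to 14709385, plus strand.

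Twist1 had the largest rise of the 10 under TMM scaling, whereas with GC-corrected offsets Foxc1 was above it (0.49 against 0.43). Its normalized counts were 720, 725, 845 and 760 in 4T1-Sca1+ cells and 513, 526, 479 and 435 in 4T1-Sca1- cells. All 4T1-Sca1+ libraries lay above all 4T1-Sca1- libraries, and replicate 3 was highest. The log2 fold change was 0.65 ± 0.07 (762 ± 57.7 against 488 ± 40.6, 1.57-fold, edgeR adjusted p = 2.94e-07), with 0.43 under GC-corrected offsets (edgeR adjusted p = 9.04e-08) and 0.60 without 4T1-Sca1+ replicate 3. An absolute log2 fold change at least as large was seen in 13.5% of tested genes. Twist1 (ENSMUSG00000035799) lies on chromosome 12, 33957671 to 33959829, plus strand.

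Both forkhead factors were higher in 4T1-Sca1+ cells under TMM scaling. Foxc1, a forkhead factor often high in basal-like breast tumors, had normalized counts of 670, 724, 901 and 705 against 545, 536, 456 and 435, with no overlap. Its log2 fold change was 0.61 ± 0.09 (750 ± 103 against 493 ± 55.7, edgeR adjusted p = 1.29e-05), 0.49 with GC-corrected offsets and 0.51 when 4T1-Sca1+ replicate 3 was left out, the highest of its libraries. Foxc2, known for its part in lymphatic development, had 207, 201, 256 and 227 against 182, 157, 132 and 160. These groups did not overlap either, and the log2 fold change was 0.50 ± 0.10 (223 ± 25 against 158 ± 20.4, edgeR adjusted p = 0.000436). With GC-corrected offsets that of Foxc2 was 0.18 ± 0.09 (edgeR adjusted p = 0.0838), and without 4T1-Sca1+ replicate 3 it was 0.43. The ratio of Foxc1 to Foxc2 counts ran from 3.11 to 3.60 in 4T1-Sca1+ and from 2.72 to 3.45 in 4T1-Sca1- libraries, which overlap. Foxc1 (ENSMUSG00000050295) lies on chromosome 13, 31806633 to 31812476, and Foxc2 (ENSMUSG00000046714) on chromosome 8, 121116171 to 121118895, both on the plus strand.

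**Figure D3:**
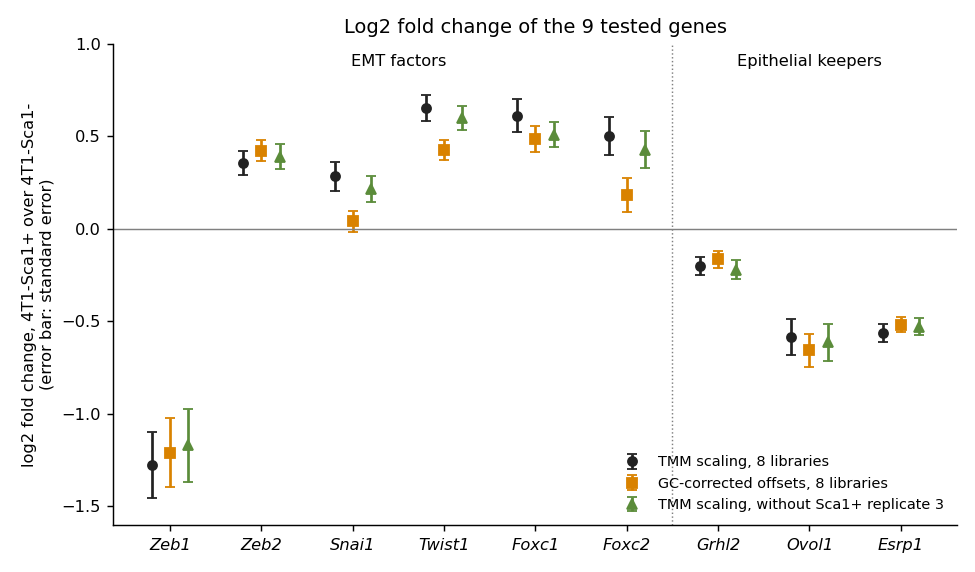
Log2 fold change (4T1-Sca1+ over 4T1-Sca1-) of the 9 tested genes with its standard error under TMM scaling (black), with GC-corrected offsets (orange) and without 4T1-Sca1+ replicate 3 (green). Snai1 drops from 0.28 to 0.04 and Foxc2 from 0.50 to 0.18 with GC-corrected offsets, while Zeb1 stays at -1.17 or below.

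The keepers were lower in 4T1-Sca1+ cells. Esrp1, the splicing regulator, had normalized counts of 1411, 1408, 1255 and 1347 in 4T1-Sca1+ libraries and 1983, 2090, 1994 and 2010 in 4T1-Sca1- libraries. The groups were far apart, and its log2 fold change of -0.56 ± 0.05 (1355 ± 73.3 against 2019 ± 48.8, edgeR adjusted p = 2.78e-08) had the smallest adjusted p of the 10. With GC-corrected offsets it was -0.52, and without 4T1-Sca1+ replicate 3 -0.53. Esrp1 (ENSMUSG00000040728) lies on chromosome 4, 11331933 to 11386783, minus strand.

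Ovol1, a zinc finger repressor of Zeb1, had normalized counts of 130, 154, 155 and 148 in 4T1-Sca1+ cells and 212, 257, 215 and 201 in 4T1-Sca1- cells. Every 4T1-Sca1+ library was below every 4T1-Sca1- library, of which replicate 2 was highest. The log2 fold change was -0.58 ± 0.10 (147 ± 11.6 against 221 ± 24.5, edgeR adjusted p = 4.58e-05), -0.66 with GC-corrected offsets and -0.61 when 4T1-Sca1+ replicate 3 was left out. Ovol1 and Zeb1 were thus lower in the same libraries. Ovol1 (ENSMUSG00000024922, chromosome 19, 5549136 to 5560646, minus strand) shares 690 exon bases, 19.8% of its exons, with the pseudogene Gm31166 on the opposite strand, which was not among the genes counted. Reads from that stretch cannot be assigned to a strand.

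Grhl2, a grainyhead factor that activates junction genes, had the smallest change of the 9 tested genes under TMM scaling with all 8 libraries, whereas that of Snai1 was smaller with GC-corrected offsets (0.04 against -0.17) and without 4T1-Sca1+ replicate 3 (0.21 against -0.22). Its normalized counts were 1023, 1120, 1104 and 1021 in 4T1-Sca1+ cells and 1251, 1244, 1190 and 1260 in 4T1-Sca1- cells. The groups did not overlap, with a log2 fold change of -0.20 ± 0.05 (1067 ± 52.5 against 1236 ± 31.6, edgeR adjusted p = 0.00192), and 57.2% of tested genes had an absolute log2 fold change at least as large. It was -0.17 with GC-corrected offsets, and leaving out 4T1-Sca1+ replicate 3 gave -0.22. Grhl2 (ENSMUSG00000022286) lies on chromosome 15, 37233036 to 37363569, plus strand.

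Per transcript length, as TPM (counts divided by union exon length and scaled to the same total in each library), Twist1 had the highest level of the 10 in 4T1-Sca1+ cells. There the order was Twist1 (119 ± 8.18 TPM), Snai1 (82.6 ± 8.06), Esrp1 (54.6 ± 3.29), Foxc1 (32.6 ± 4.25), Grhl2 (31.5 ± 1.54), Foxc2 (20.7 ± 2.18), Ovol1 (10.7 ± 0.84), Zeb2 (6.63 ± 0.40), Zeb1 (0.492 ± 0.092) and Snai2 (0.386 ± 0.186, each as SD with n = 4). Of neighbors in that order, Foxc1 with Grhl2 and Zeb1 with Snai2 had overlapping ranges. In 4T1-Sca1- cells Esrp1 came highest (78.2 ± 0.99 TPM), with its range overlapping that of Twist1 (73.2 ± 5.87), which overlapped that of Snai1 (65.6 ± 4.96). Grhl2 (35 ± 1.01), Foxc1 (20.6 ± 2.31), Ovol1 (15.5 ± 1.53), Foxc2 (14.2 ± 1.92), Zeb2 (5.02 ± 0.39), Zeb1 (1.2 ± 0.087) and Snai2 (0.679 ± 0.529) followed, of which Ovol1 with Foxc2 and Zeb1 with Snai2 overlapped. The ratio of Twist1 to Esrp1 counts, chosen after seeing the data and neither tested nor corrected for GC content, was 0.510 to 0.673 in 4T1-Sca1+ cells and 0.216 to 0.259 in 4T1-Sca1- cells. Over all 8 libraries the TPM of Twist1 stood at percentile 85.7 of the genes counted, that of Zeb2 at 40.2 and that of Zeb1 at 26.7. The order depends on the length used: with coding length in place of exon length, 5 of the 10 genes kept their place in the order over all 8 libraries.

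**Figure D4:**
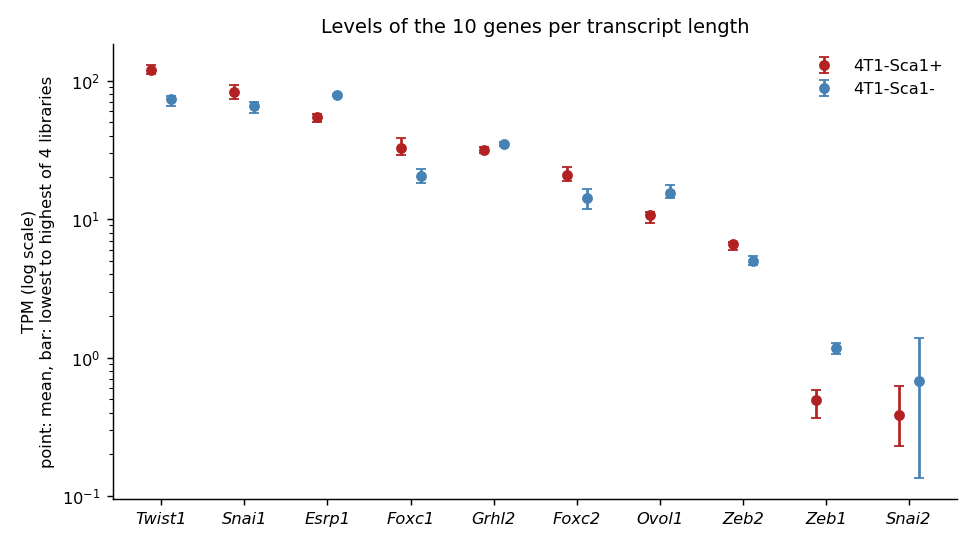
TPM (log axis) of the 7 EMT factors and 3 keepers in 4T1-Sca1+ (red) and 4T1-Sca1- (blue) cells, where points are means of 4 libraries and bars run from the lowest to the highest. Twist1 is highest in 4T1-Sca1+ cells at 119 TPM and Esrp1 in 4T1-Sca1- cells at 78.2 TPM, and Zeb1 and Snai2 are lowest in both.

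Other EMT-inducing factors were mostly called higher in 4T1-Sca1+ cells. Of the 15 on the list, 10 were tested, of which 7 were higher, 2 lower and 1 was not called, with a median log2 fold change of 0.29 against 0.01 over all tested genes. These calls were 70% higher and 20% lower, against 31.3% and 30.2% of all tested genes. Foxq1, a forkhead factor, rose from 31.1 ± 4.75 to 141 ± 18.6 normalized counts (log2 fold change 2.18 ± 0.15, edgeR adjusted p = 8.60e-10), more than any of the 10 genes. Snai3, the third Snail paralog, was lower at 13.8 ± 4.76 against 36.0 ± 5.07 (-1.38 ± 0.23, edgeR adjusted p = 6.43e-05), and so was not in the direction of Snai1. Twist2 was not among the genes counted. With GC-corrected offsets 6 of these factors were higher and 1 was lower, and without 4T1-Sca1+ replicate 3 the counts were 7 and 2.

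Among 15 other keepers, 13 were tested, with 2 higher, 6 lower and 5 not called (median -0.21), and 2 higher and 5 lower when 4T1-Sca1+ replicate 3 was left out. With all libraries 15.4% were higher and 46.2% lower, against 31.3% and 30.2% of all tested genes. The paralogs of the keepers differed among themselves. Esrp2 was lower (454 ± 27.1 against 546 ± 43.2, log2 fold change -0.25 ± 0.07, edgeR adjusted p = 0.00381) and Ovol2 was lower at 31.6 ± 8.07 against 46.1 ± 11.4 (-0.53 ± 0.21, edgeR adjusted p = 0.0380), a call that was lost with library totals alone, with DESeq2, with limma on the deposited table, and without any of 4T1-Sca1+ replicates 1 and 3 and 4T1-Sca1- replicates 1 and 4. Grhl3 was instead higher, at 18.1 ± 4.21 against 4.60 ± 2.08 (2.00 ± 0.35, edgeR adjusted p = 9.78e-05), and Grhl1 was not called (17.5 ± 4.05 against 21.5 ± 2.85, -0.26 ± 0.23). The Grhl3 value rests on few reads, 77 counts in all in 4T1-Sca1+ and 17 in 4T1-Sca1- libraries. Grhl3 passed the low-count filter through its 4T1-Sca1+ libraries alone, so its p-value is weak support. The ratio of Esrp1 to Esrp2 counts, again chosen after seeing the data, was 2.56 to 3.33 in 4T1-Sca1+ and 3.50 to 4.03 in 4T1-Sca1- libraries. This ratio is not corrected for GC content, which was 48.0% in Esrp1 and 57.2% in Esrp2, and the log2 fold changes were closer with GC-corrected offsets (-0.52 and -0.41) than under TMM scaling (-0.56 and -0.25).

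The genes that these factors are known to act on did not follow 1 pattern. Of 20 epithelial effectors, such as junction proteins and keratins, 5 were higher, 8 lower and 7 not called (median -0.05), with 4 higher and 13 lower under GC-corrected offsets and 5 higher and 10 lower without 4T1-Sca1+ replicate 3. Under TMM scaling 25% were higher and 40% lower, not far from 31.3% and 30.2% of all tested genes. With GC-corrected offsets the median was -0.20. The lower calls, 13 of 20, were then a larger share than the 33.3% of all tested genes. The higher calls, 4 of 20, were a smaller share than the 32.4% of all tested genes. Cdh1, the main target of the Snail and ZEB proteins, was lower (3264 ± 154 against 5301 ± 92.6, log2 fold change -0.69 ± 0.04, edgeR adjusted p = 6.19e-10), as was Dsp, which encodes desmoplakin (-0.71 ± 0.05, edgeR adjusted p = 6.51e-10). Rab25, an epithelial trafficking GTPase, was higher (1.10 ± 0.09, edgeR adjusted p = 8.95e-09). Epcam was not called (-0.03 ± 0.04), with 0.01 under library totals alone, and it was called lower with GC-corrected offsets (-0.13, edgeR adjusted p = 0.00274).

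Of 20 mesenchymal effectors 13 were tested, with 6 higher, 3 lower and 4 not called (median 0.03), with 6 higher and 5 lower under GC-corrected offsets and 6 higher and 4 lower without 4T1-Sca1+ replicate 3. Under TMM scaling 46.2% were higher and 23.1% lower, against 31.3% and 30.2% of all tested genes. Vim, the intermediate filament vimentin, was higher (29265 ± 1375 against 21883 ± 476, log2 fold change 0.43 ± 0.04, edgeR adjusted p = 1.19e-07), and Col5a1, a fibrillar collagen, was highest in fold change (0.78 ± 0.07, edgeR adjusted p = 8.30e-08). Fibronectin (Fn1) was not called (0.03 ± 0.04), and its sign turned with GC-corrected offsets (-0.01) and on leaving out 4T1-Sca1- replicate 1 (-0.00059). N-cadherin (Cdh2) was not among the genes counted.

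**Figure D5:**
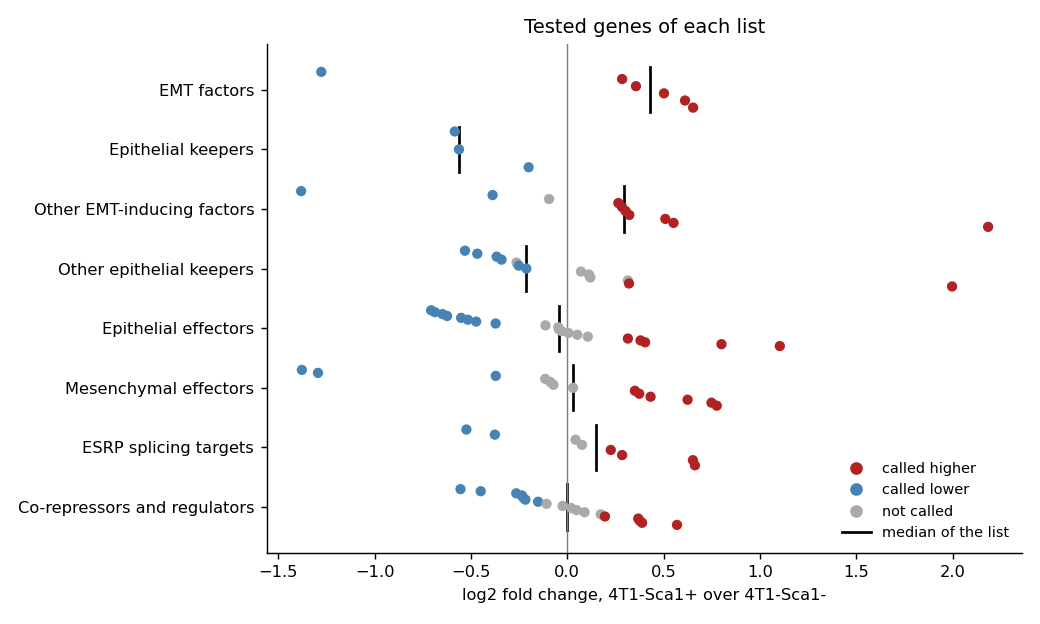
Log2 fold change (4T1-Sca1+ over 4T1-Sca1-) of the tested genes of each list, called higher (red), lower (blue) or not called (grey), with the median as a black line. The EMT factors (median 0.43) and the keepers (median -0.56) lie on opposite sides, apart from Zeb1, and the effector lists straddle 0 with medians of -0.05 and 0.03.

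All 8 genes listed as splicing targets of the ESRP proteins were tested, with 4 higher, 2 lower and 2 not called (median 0.15). There were 5 higher and 2 lower with GC-corrected offsets, and also without 4T1-Sca1+ replicate 3. With all libraries 50% were higher and 25% lower, against 31.3% and 30.2% of all tested genes. Slc37a2 had the highest log2 fold change (0.66 ± 0.22, edgeR adjusted p = 0.0139), a call lost without 4T1-Sca1+ replicate 4 or 4T1-Sca1- replicate 3, and Cd44, a hyaluronan receptor, the lowest (-0.52 ± 0.05, edgeR adjusted p = 1.65e-07). These are levels per gene, and counts per gene do not show which isoform was spliced. Of 18 co-repressors and regulators of the EMT factors, 5 were higher, 7 lower and 6 not called (median -0.00), and 6 higher and 6 lower without 4T1-Sca1+ replicate 3. With all libraries under TMM scaling 27.8% of them were higher and 38.9% lower, not far from the shares of all tested genes. With GC-corrected offsets 7 were higher and 6 lower (median 0.05), against 32.4% and 33.3% of all tested genes. Id1, an inhibitor of helix-loop-helix factors, was highest (0.57 ± 0.08, edgeR adjusted p = 5.03e-06) and Ezh2, the histone methyltransferase of the Polycomb complex, lowest (-0.55 ± 0.06, edgeR adjusted p = 3.01e-07).

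Markers of other cell types were set beside these genes, because EMT factors are also expressed by stromal cells. All 7 mammary epithelial markers were tested, with 2 higher (Krt8 and Krt18), 2 lower (Cdh1 and Krt7) and 3 not called, and with 2 higher and 5 lower under GC-corrected offsets. Over all tested genes 31.3% were called higher and 30.2% lower, or 32.4% and 33.3% with these offsets. Krt8 had 13673 ± 569 normalized counts in 4T1-Sca1+ and 11093 ± 392 in 4T1-Sca1- cells, and Krt7 had 17104 ± 811 and 19845 ± 837. Of 10 fibroblast markers 7 were counted and 3 tested, 2 of them higher (3 without 4T1-Sca1+ replicate 3), and their summed normalized counts were 635 to 671 in 4T1-Sca1+ and 395 to 468 in 4T1-Sca1- libraries. Most of that sum was Pdgfra (560 ± 26.1 against 364 ± 25.6), which was called higher. Col1a1 was the other one called higher (47.6 ± 10.6 against 28.6 ± 3.93, log2 fold change 0.75 ± 0.19, edgeR adjusted p = 0.00252). Dcn had 49 counts in all against 4, and Col3a1, Lum and Thy1 were not among the genes counted. Pdgfrb had 27 counts in all against 1, Col1a2 19 against 18 and Fap 4 against 11. Postn was not called (24.7 ± 7.87 against 24.2 ± 3.85). Of 18 leukocyte markers 13 were counted and 5 tested, with 4 higher (Cd68, Csf1r, Cd74 and S100a8) and 1 lower (Cd14) and summed normalized counts of 1125 to 1185 against 1064 to 1171, whereas Ptprc, which encodes CD45, had 10 counts in all against 2. Most of that sum was Cd14 (703 ± 32.2 against 865 ± 34.9), so it hides the rise of the 4 others. Among those, S100a8 rests on few reads, 164 counts in all against 28. It passed the low-count filter through its 4T1-Sca1+ libraries, so its call is weak support. Of 8 endothelial markers 7 were counted and Tie1 alone was tested, which was lower. The summed normalized counts of the 7 were 34.7 to 43.9 against 43.4 to 66.2. Most of that sum was Tie1, with 108 counts in all against 147. Among the untested, Pecam1 went the other way without overlap, at 21 counts in all against 4, and Vwf had 5 against 3. Esam had 24 against 32, Cdh5 3 against 7, and Tek and Emcn each 0 against 1. No marker counted was at 0 in every library, and the part of such cells in the levels of the EMT factors was not tested.

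As a description of likeness, the genes whose log2 level over the 8 libraries correlated best with Twist1 were Il6ra, a receptor chain for interleukin-6, (Pearson's r = 0.995), Pim3 (0.995) and Edem1 (0.995). For Zeb1 they were Mrpl39 (0.996), Mettl16 (0.996) and Nop14 (0.996). Such values were common, with r of at least 0.9 to Twist1 in 15.6% and to Zeb1 in 15.9% of tested genes, since all these points share 8 libraries in 2 groups.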

How the data were processed

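Libraries of total RNA were prepared with the TruSeq RNA v2 kit and read on a NextSeq instrument per the labels, and the submitters' processing notes name cutadapt 1.16, STAR 2.5.3a and GRCm38/mm10. The counting tool, annotation and strand setting are not given in the sources used here. The authors deposited raw counts per Ensembl gene and a second table of normalized signal, which equaled the counts divided by DESeq2 size factors to the digits deposited and left out 969 genes.

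Counts were tested with edgeR 4.0.16 (R 4.3.3) after filterByExpr and TMM scaling, two-sided and with no covariate, with Benjamini-Hochberg adjustment over 11717 genes. The SE was the log2 fold change over the square root of F. GC-corrected offsets were loess fits (span 0.5) on transcript GC from GENCODE M21, which held 16202 of the genes. In each library the fitted value was the deviation of log2 CPM from the mean of the gene over the libraries. Alternatives used DESeq2 1.42.0 and limma 3.58.1 (pseudocount 1 for the signal table). The fits were tested on simulated data. Named were all 10 genes, the highest and lowest tested gene of each list, and preset paralogs and markers (1 of these genes is not reported here); likeness took the 3 highest correlations for the extreme members. Members and lists were chosen with earlier results of these data known. Intervals and floors of PCR reads without molecular identifiers would cover counting error only.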

Additional observations from a re-analysis of the deposited data

Results flagged for a closer look

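Among 56 groups of 4 libraries examined for the named genes, 4 held a library far from the others, and chance flags about 1 in 20 groups, or 2.8 of them. Zeb2 in 4T1-Sca1+ replicate 3 had a normalized count of 478.8, against 530 to 538 in the other 4T1-Sca1+ libraries. Col5a1 in 4T1-Sca1- replicate 2 had 4276, against 3462 to 3593. Slc37a2 in 4T1-Sca1- replicate 3 had 13.4, against 28.7 to 29.7. Fn1 in 4T1-Sca1+ replicate 4 had 46257.5, against 49254 to 49843.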

How the results depend on the processing

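Of 171 alternative values of the members' log2 fold changes, 165 kept their direction and call. The other 6 were Snai1 and Foxc2 with GC-corrected offsets (0.042 and 0.18), with these and the replicate block (0.043 and 0.19), and with these but without 4T1-Sca1+ replicate 3 (0.036 and 0.19), the last chosen after seeing the data. In each of these 3 fits 3 members were called higher; the cause was not tested. When a change of at least 1 (log2) was also asked, 0 members were higher and 1 lower (Zeb1), as were 612 and 103 of all genes. Leaving out each library in turn gave 5 members higher and 4 lower throughout, and log2 fold changes of -1.15 to -0.29 for Snai2. Of all genes, 3397 to 3642 were called higher and 3286 to 3548 lower in these fits.

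Replicate numbers did not pair the libraries (correlations of 0.096, -0.15, -0.034 and -0.0011), and the replicate block gave 3605 genes higher and 3452 lower in all, against 3668 and 3538 without it, with the same member calls.

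Among the lists, 1 other EMT-inducing factor was lower, not 2, with DESeq2, with GC-corrected offsets alone or with the block, and in some fits without 1 library (range 1 to 2). Other keepers had 1 higher with at least 10 counts in every library and 4 with GC-corrected offsets. Epithelial effectors had 13 lower and mesenchymal effectors 5 lower with GC-corrected offsets, with or without the block, and 5 mesenchymal effectors were lower also with these offsets and 4T1-Sca1+ replicate 3 left out, against 4 with that library left out alone. With coding length 5 members kept their place in the order of levels. Of 341 alternatives for 18 other named genes, 324 kept direction and call. Epcam turned to 0.013 with library totals alone, and Fn1 to -0.013 with GC-corrected offsets (-0.013 with the block, -0.011 with these offsets and 4T1-Sca1+ replicate 3 left out) and to -0.00059 without 4T1-Sca1- replicate 1 (range without 1 library -0.00059 to 0.053). Depth limits Snai2, and Zeb1 in part.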
